A study of Mus musculus with 6 samples.

Results

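The 10 genes described here encode proteins that fuse, divide and build mitochondria. They were chosen by name. *Mfn1*, *Mfn2* and *Opa1* represent fusion, *Dnm1l*, *Fis1* and *Mff* represent fission, and *Ppargc1b*, *Esrra*, *Nrf1* and *Gabpa* represent biogenesis. All 10 were among the 16381 genes that had a value, and all 10 were among the 14419 genes that could be tested. Expression was measured by bulk RNA sequencing in activated group 2 innate lymphoid cells (aILC2s), lung-resident lymphocytes that release type 2 cytokines. The cells came from wild-type (WT) BALB/c mice, a strain that is deficient in melatonin of its own, after intranasal IL-33 at 0.5 µg per day for 3 days. They were sorted from lung as lineage-negative cells carrying ST2 and CD127, then cultured for 24 h with 250 µM melatonin (3 samples) or with an equal volume of its solvent DMSO, called vehicle (3 samples). No allele was altered in either group. The labels do not say whether samples of a group came from separate mice or cultures, so every p-value below measures only the spread between these samples. That spread may be technical, although the treated libraries differ in sex-linked transcripts, as given below.

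Mitochondria form a network that is reshaped by opposing reactions. Mitofusins (*Mfn1*, *Mfn2*) join outer membranes and OPA1 joins inner membranes and holds the cristae in shape, whereas the GTPase DRP1 (*Dnm1l*) is drawn to outer membrane adaptors such as MFF and FIS1 and constricts the organelle until it divides. New mitochondria depend on nuclear genes, whose transcription is driven by nuclear respiratory factor 1 (*Nrf1*), the ETS family factor GABPA and the orphan receptor ERRα (*Esrra*), with PGC-1β (*Ppargc1b*) as a coactivator. *Nrf1* here is nuclear respiratory factor 1, which is distinct from the antioxidant factor NRF2 (*Nfe2l2*). The comparison asks whether the transcripts that set mitochondrial shape and supply differed between melatonin-treated and vehicle-treated aILC2s, in a study that also examined the size and membrane potential of ILC2 mitochondria.

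The libraries held between 17056221 and 20511765 estimated counts each. Values are normalized counts, that is, estimated read counts per gene divided by a size factor for each sample. Library numbers ran from 20 to 22 with melatonin and from 32 to 34 with vehicle, and treatment and any batch that follows this numbering cannot be told apart. Although the methods describe female mice, transcripts of the Y-linked genes *Ddx3y*, *Eif2s3y*, *Kdm5d* and *Uty* were absent only from melatonin replicates 2 and 3, the libraries in which the X-inactivation transcript *Xist* reached 579 and 1091 against 0 to 13.6 elsewhere. This difference is tied in part to treatment, since all vehicle libraries had these Y-linked transcripts and melatonin replicates 2 and 3 did not. None of the 10 genes is on chromosome X or Y, and calls among them are given with melatonin replicate 1 as the only treated library and without it. In the fit with melatonin replicate 1 alone, the 3 vehicle samples give all of the spread and the lone treated sample is assumed to vary like them. All 13 ILC2 markers had values and reached 100 in at least 1 sample, and their summed level was 218889 to 232893 with vehicle and 151901 to 169797 with melatonin. The summed level of NK cell markers (5 of 5 listed) was 5944 to 7224 with vehicle and 75.6 to 210 with melatonin, and that of T cell markers (3 of 7 listed, without *Cd4*, *Cd8a*, *Cd8b1* and *Cd5*) was 1203 to 1336 and 458 to 868. The macrophage and monocyte sum (6 of 6) was 1348 to 1532 with vehicle and 362 to 808 with melatonin. For eosinophils, basophils and mast cells (4 of 7, without *Prg2*, *Epx* and *Fcer1a*) the sum was 288 to 349 and 10.3 to 57.3. Neutrophil markers (3 of 4, without *Ly6g*) summed to 13.6 to 75.6 and 0 to 4.4, and epithelial markers (6 of 6) to 925 to 2268 and 1040 to 1260. Of the 6 endothelial and fibroblast markers, only *Pecam1* had a value, at 1001 to 1066 with vehicle and 310 to 416 with melatonin. *Cdh5*, *Col1a1*, *Col1a2*, *Col3a1* and *Dcn* had none. The share of counts from the mitochondrial genome was 0.476% to 0.675% with vehicle and 0.249% to 0.403% with melatonin, and 270 to 335 and 515 to 741 genes, respectively, were at 0. The part of these cells and of these library measures in the results below was not tested. In bulk RNA, fewer cells of a type and less RNA per cell cannot be told apart. The ILC2 markers include *Il5*, *Il13* and *Klrg1*, which the paper reports lower in melatonin-treated ILC2s as transcript or protein. Their sum is thus not a count of cells.

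Because *Nrf1*, *Gabpa* and *Esrra* encode DNA-binding factors that act on genes of this kind, the 250 bases before the start of each canonical transcript were searched for short motifs. The letters searched were GCGCATGC for NRF1, CCGGAAG for ETS factors such as GABPA, AAGGTCA for ERR, CACGTG for the E-box and TGACNNNGC for the antioxidant response element, each on both strands. The last 28 bases before the start are shown, 5′ to 3′ along the gene, for the genes with a match and for *Fis1* and *Mff*, whose changes ran in opposite directions. They are read from GRCm39, with starts from Gencode M39, and capitals mark a motif match.
Mfn1: taggagatccgaagcgCCGGAAGtagcc
Opa1: ctccccGCGCATGCGCatgtcatccgcg
Esrra: tttGCATGCGCaggccggccccgcctcc
Gabpa: agtggagggtaagtgCTTCCGGgtccct
Fis1: ccgccccaaggcaaaggaggaaggggcg
Mff: cgtctcaggagcctgcatgcaacatccg

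These stretches lie at chr3:32583571-32583598 on the plus strand for *Mfn1*, chr16:29398087-29398114 on the plus strand for *Opa1*, chr19:6899186-6899213 on the minus strand for *Esrra*, chr16:84631904-84631931 on the plus strand for *Gabpa*, chr5:136990903-136990930 on the plus strand for *Fis1* and chr1:82702554-82702581 on the plus strand for *Mff*. The NRF1 letters occurred before *Opa1*, from −22 to −15 and, overlapping them on the other strand, from −20 to −13, and before *Esrra* from −25 to −18. Of 12952 promoters of the same length, 3.36% held these letters. The ETS letters occurred before *Mfn1* from −12 to −6 and before *Gabpa* itself from −13 to −7 and from −185 to −179, against 10.1% of all promoters. The ERR letters (3.31% of promoters), the E-box (7.62%) and the antioxidant response element (10.6%) were found in 0 of the 10 windows. A match describes these letters only and is not evidence of binding.

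With melatonin, 3 of the 10 transcripts rose, 2 fell and 5 did not pass the test. The fission adaptor *Mff*, the mitofusin *Mfn1* and the fission GTPase *Dnm1l* were higher, by 1.31-, 1.27- and 1.22-fold of the vehicle mean. The other fission adaptor among the 10, *Fis1*, fell by 24.8% and the coactivator *Ppargc1b* fell by 31.2%. The mitofusin *Mfn2*, *Opa1*, *Esrra*, *Nrf1* and *Gabpa* did not pass the threshold, which was an adjusted p of 0.05 in limma over all genes tested. Across all genes, 24.5% were called higher and 24.7% lower, so 3 and 2 of 10 are near the shares seen throughout the transcriptome. All 3 melatonin values lay above all 3 vehicle values for 3 of the genes, against 30.0% of all genes, and below them for 3, with *Esrra* as the addition, against 30.3%. The median change of the 10 genes was −0.05 on the log2 scale, beside −0.0046 for all genes, and the median size of change regardless of sign was 0.27, beside 0.45. Of all genes tested, 42.6% had a larger change than the largest among the 10.

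**Figure D1:**
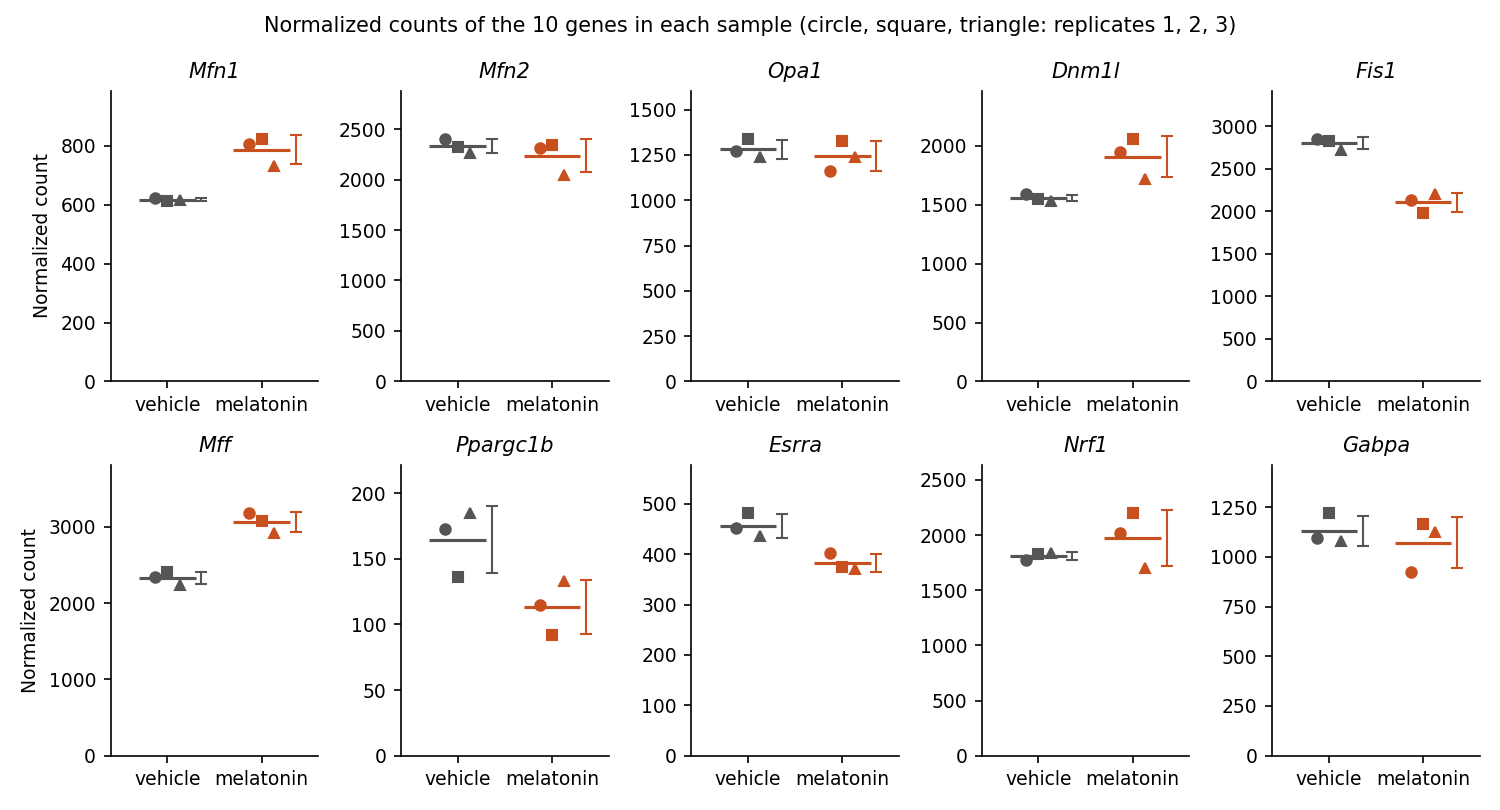
Normalized counts (y axis, from 0, linear) of each gene in every sample, with vehicle in grey and melatonin in orange; circles, squares and triangles are replicates 1, 2 and 3, horizontal lines are group means and bars beside them are ± 1 SD (n = 3). *Mff*, *Mfn1* and *Dnm1l* sit higher with melatonin and *Fis1*, *Ppargc1b* and *Esrra* lower, without overlap, and the groups overlap for the other 4 genes.

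Of the fusion genes, *Mfn1* passed the test, and *Mfn2* and *Opa1* did not. *Mfn1* (ENSMUSG00000027668, chr3:32583599-32645888, plus strand) had 624, 615 and 616 normalized counts in vehicle replicates 1, 2 and 3 and 806, 824 and 731 in melatonin replicates 1, 2 and 3. The vehicle values were nearly equal, and every melatonin sample was above all of them. The log2 change was 0.35 ± 0.09 (SE, n = 3 per group, limma adjusted p = 0.0123), with a 95% interval of 0.14 to 0.55. The call held in all 20 alternative fits, where the change lay between 0.26 and 0.40.

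*Mfn2* (ENSMUSG00000029020, chr4:147955508-147989585, minus strand), which also tethers mitochondria to the endoplasmic reticulum, had 2402, 2319 and 2263 normalized counts with vehicle and 2313, 2346 and 2048 with melatonin. The groups overlapped, and the lowest value was that of melatonin replicate 3. Its log2 change was −0.06 (95% interval −0.25 to 0.12, limma adjusted p = 0.561). It was called lower in 1 of the 20 alternatives, at −0.20 (adjusted p = 0.0464), when a smooth curve of change against transcript length was removed, and its sign turned to 0.06 when the curve was against GC content. Within each sample, the log2 ratio of *Mfn1* to *Mfn2*, both per kilobase of transcript, was −2.83, −2.80 and −2.77 with vehicle and −2.41, −2.40 and −2.38 with melatonin. The ratio was thus higher in every melatonin sample, by 0.41, or 1.33-fold. This ratio does not depend on how the samples were scaled, and it is given as a description without a test. The difference in fold change between these genes was 0.41 in the fit over all genes, 0.53 with the length curve removed and 0.20 with the GC content curve removed.

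*Opa1* (ENSMUSG00000038084, chr16:29398108-29473858, plus strand) had 1269, 1338 and 1237 normalized counts with vehicle and 1162, 1329 and 1238 with melatonin. The groups overlapped, and melatonin replicate 1 was the lowest sample. The log2 change was −0.05 (limma adjusted p = 0.682). In this fit, its 95% interval of −0.24 to 0.15 excludes changes as large as that measured for *Mfn1* in either direction. The change of *Opa1* was −0.15 with the length curve removed, −0.15 with the GC content curve removed and −0.14 with melatonin replicate 1 alone.

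The fission genes included the largest rise and the most significant fall among the 10. *Mff* (ENSMUSG00000026150, chr1:82702582-82730684, plus strand), the mitochondrial fission factor that recruits DRP1, had 2347, 2406 and 2243 normalized counts with vehicle and 3179, 3079 and 2923 with melatonin. Every melatonin sample exceeded every vehicle sample by more than the whole range of either group. The log2 change was 0.39 ± 0.07 (SE, limma adjusted p = 0.00274), it was called in all 20 alternatives, and it ranged from 0.31 to 0.45 among them.

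*Fis1* (ENSMUSG00000019054, chr5:136982101-136995089, plus strand), a small tail-anchored protein of the outer membrane, went the other way, with 2852, 2832 and 2718 normalized counts with vehicle and 2129, 1987 and 2202 with melatonin. No melatonin sample reached the lowest vehicle value. Its log2 change was −0.41 ± 0.08 (SE, limma adjusted p = 0.0023). The per-kilobase log2 ratio of *Fis1* to *Mff* was 2.08, 2.04 and 2.08 with vehicle and 1.22, 1.17 and 1.39 with melatonin, a difference of −0.80. *Fis1* thus remained the more abundant of the pair per kilobase in all 6 samples, with its lead over *Mff* reduced to 0.573 of the vehicle ratio. With the length curve removed, the difference in fold change between them was −0.41 in place of −0.80, and with the GC content curve −0.61.

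*Fis1* has the shortest canonical transcript of the 10, at 786 bases, and across the whole table the median change was lowest for the shortest transcripts. When the tested genes were split by transcript length into 10 bins of like size, the bin of the shortest (123 to 847 bases, 1444 genes, *Fis1* among them) had a median log2 change of −0.47, with 36.4% called lower. In bins 5 to 9, which hold *Mff*, *Ppargc1b*, *Mfn2*, *Gabpa*, *Opa1* and *Dnm1l*, the median lay between 0.07 and 0.14. With a length curve removed from each sample, the change of *Fis1* was −0.09 (limma adjusted p = 0.388), while *Mff* was still called higher. The fall of *Fis1* was called in the other 19 alternatives.

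**Figure D2:**
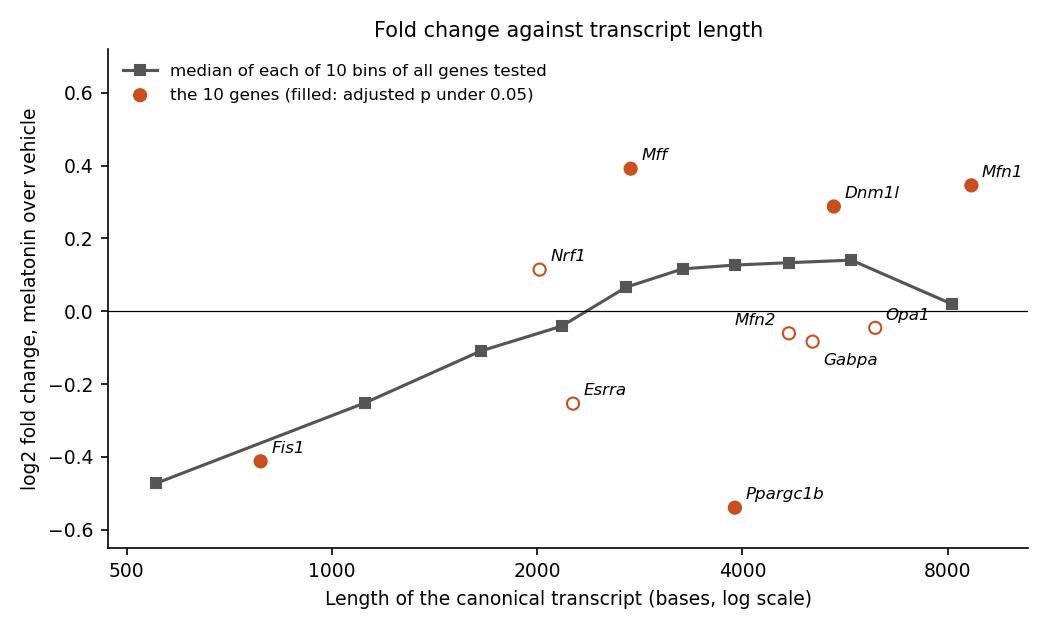
Log2 fold change, melatonin over vehicle (y axis), against the length of the canonical transcript in bases (x axis, log scale); squares joined by a line are the medians of 10 bins of all genes tested, split by length, and circles are the 10 genes, filled where the adjusted p was under 0.05. *Fis1* lies close to the median of the shortest bin (−0.47), and *Mff*, *Dnm1l* and *Mfn1* lie above the medians at their lengths and *Ppargc1b* below.

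*Dnm1l* (ENSMUSG00000022789, chr16:16128677-16176904, minus strand) had 1588, 1553 and 1535 normalized counts with vehicle and 1951, 2059 and 1716 with melatonin. All melatonin samples were above all vehicle samples, and they differed more among themselves (SD 175) than the vehicle samples did (SD 26.9). The log2 change was 0.29 ± 0.09 (SE, limma adjusted p = 0.0241). The call was made in 13 of 20 alternatives. It was lost without melatonin replicate 2 (0.23, adjusted p = 0.0803), without vehicle replicate 1 (0.30, adjusted p = 0.0596), replicate 2 (0.29, adjusted p = 0.0769) or replicate 3 (0.28, adjusted p = 0.0754), in limma without the trend (0.29, adjusted p = 0.0604), and with a curve for length (0.15, adjusted p = 0.14) or GC content (0.15, adjusted p = 0.161) removed. The per-kilobase log2 ratio of *Opa1*, the inner membrane fusion gene, to *Dnm1l* was −0.53, −0.42 and −0.51 with vehicle and −0.95, −0.83 and −0.67 with melatonin, lower in every melatonin sample by 0.33 on average.

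**Figure D3:**
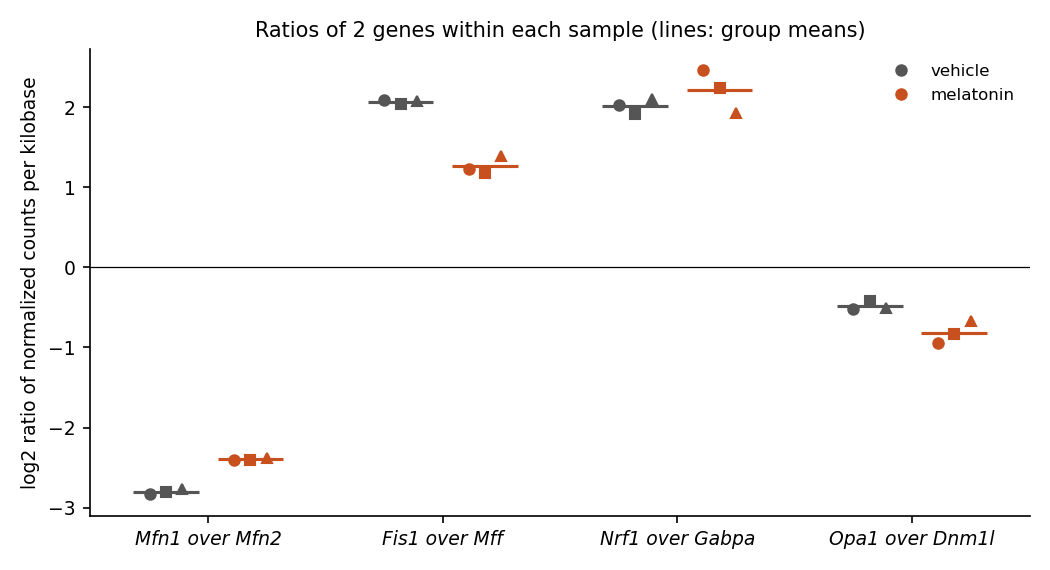
Log2 ratio of the normalized counts per kilobase of 2 genes within each sample (y axis) for the 4 pairs on the x axis, with vehicle in grey and melatonin in orange, replicates 1, 2 and 3 as circle, square and triangle, and group means as lines. *Mfn1* over *Mfn2* is higher and *Fis1* over *Mff* and *Opa1* over *Dnm1l* are lower in all melatonin samples, while *Nrf1* over *Gabpa* overlaps between the groups.

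Of the biogenesis genes, only *Ppargc1b* passed the test. *Ppargc1b* (ENSMUSG00000033871, chr18:61431195-61533735, minus strand) was the least abundant of the 10, with 173, 136 and 185 normalized counts with vehicle and 115, 91.8 and 133 with melatonin. The highest melatonin value lay just under the lowest vehicle value. Its log2 change of −0.54 ± 0.20 (SE, 95% interval −0.98 to −0.10, limma adjusted p = 0.0464) was the largest in size of the 10 and the least certain of the 5 calls, made in 9 of 20 alternatives. The direction was the same in all 20, between −0.67 and −0.40. Among others, the call was lost with melatonin replicate 1 alone (−0.50, adjusted p = 0.108), without melatonin replicate 1 (−0.56, adjusted p = 0.0575) or replicate 2 (−0.40, adjusted p = 0.138), and without vehicle replicate 1 (−0.50, adjusted p = 0.13) or replicate 3 (−0.45, adjusted p = 0.152). Its paralog *Ppargc1a*, the best known coactivator of the family, had no value in the table and is not analysed here.

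*Esrra* (ENSMUSG00000024955, chr19:6888338-6899336, minus strand), which encodes the nuclear receptor that PGC-1 coactivators act through, had 453, 482 and 435 normalized counts with vehicle and 402, 375 and 371 with melatonin. The groups did not overlap, yet the log2 change of −0.25 ± 0.10 (SE, 95% interval −0.49 to −0.02) had an adjusted p of 0.0675 in limma. It was called lower in 4 of 20 alternatives, at −0.32 with quantile normalization (adjusted p = 0.0271), −0.30 with upper quartile scaling (adjusted p = 0.0341), −0.29 with sample weights (adjusted p = 0.0298) and −0.29 without melatonin replicate 1 (adjusted p = 0.0398).

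*Nrf1* (ENSMUSG00000058440, chr6:30047892-30153462, plus strand) had 1773, 1825 and 1841 normalized counts with vehicle and 2019, 2198 and 1704 with melatonin. Melatonin replicates 1 and 2 were above all vehicle samples and replicate 3 was below all of them. The log2 change was 0.11 (95% interval −0.11 to 0.34, limma adjusted p = 0.37). For *Nrf1* it was 0.03 without melatonin replicate 2, 0.22 without melatonin replicate 3 and 0.23 with the GC content curve removed. *Gabpa* (ENSMUSG00000008976, chr16:84631140-84660672, plus strand) had 1094, 1220 and 1081 normalized counts with vehicle and 924, 1167 and 1124 with melatonin. Only melatonin replicate 1 was outside the vehicle range, and the log2 change was −0.08 (95% interval −0.33 to 0.16, limma adjusted p = 0.55). With melatonin replicate 1 as the only treated library it was −0.29 (adjusted p = 0.0577), and without that library 0.02 (adjusted p = 0.861). The per-kilobase log2 ratio of *Nrf1* to *Gabpa* averaged 2.01 ± 0.09 (SD, n = 3) with vehicle and 2.21 ± 0.26 (SD, n = 3) with melatonin, and the groups overlapped. Neither gene was called in any of the 20 alternatives.

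**Figure D4:**
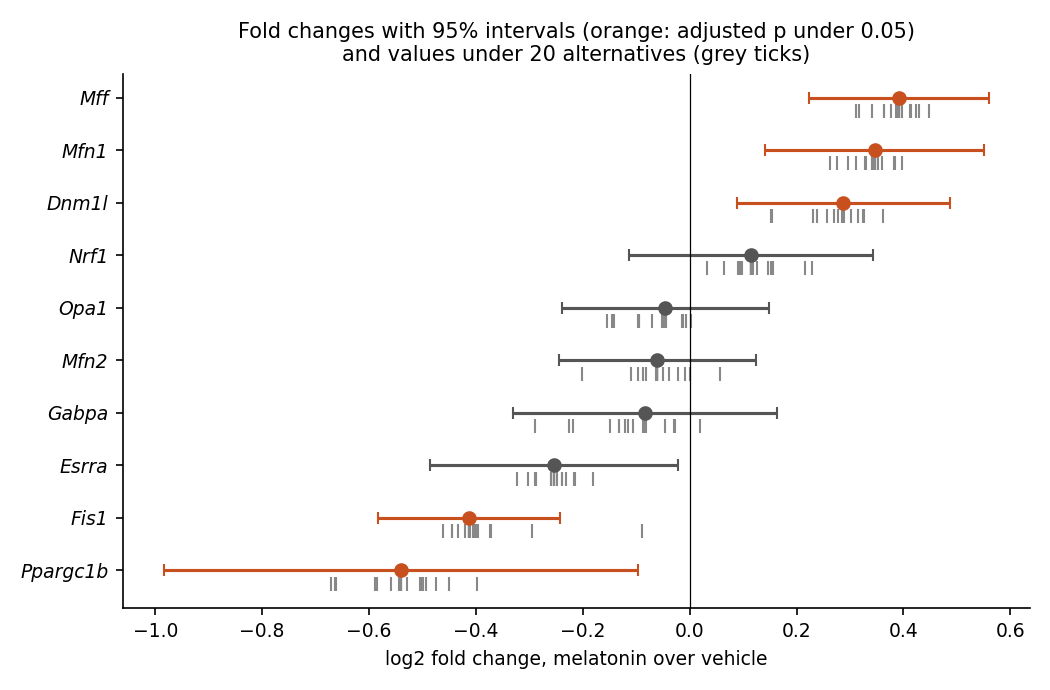
Log2 fold change, melatonin over vehicle (x axis), of each gene in the fit over all genes, with 95% intervals as bars, orange where the adjusted p was under 0.05, and the values under each of the 20 alternatives as grey ticks. *Mff*, *Mfn1* and *Dnm1l* lie right of 0 and *Fis1* and *Ppargc1b* left of it under every alternative, while *Opa1*, *Mfn2* and *Gabpa* cross 0 in some; the tick of *Fis1* at −0.09 is the fit with the transcript length curve removed.

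The number of calls among the 10 was lower in some fits with fewer samples, as it was over all genes. Without vehicle replicate 1 or 3 or without melatonin replicate 2, 1 gene was called lower in place of 2, and 2 were called higher in place of 3. In the same fits, all genes called lower numbered 2713, 2783 and 3072 in place of 3565, and those called higher 2747, 2868 and 2886 in place of 3529. With melatonin replicate 1 as the only treated library, 3 were called higher and 1 lower, and without that library 3 and 2. In this last fit the genes called lower were *Fis1* and *Esrra*. At a threshold of 0.01, 1 gene was called higher (*Mff*) and 1 lower (*Fis1*). With 3 samples per group, the smallest p that exact permutation allows is 0.1 (two-sided), so no such test is given for single genes.

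Of the 10 genes, 5 share a part of their exons with a protein-coding gene on the opposite strand, and the library kit is not stated to keep the strand, so reads from the shared bases cannot be told apart by position. Of the exon bases of *Dnm1l*, 49.3% are also exon of *Yars2*, the mitochondrial tyrosyl-tRNA synthetase, which itself fell from 649 ± 71.7 to 467 ± 33.5 normalized counts (SD, n = 3, limma adjusted p = 0.00947). For *Mfn1* the share is 40.4%, with the G protein subunit gene *Gnb4*, whose log2 change was 0.10 (adjusted p = 0.294). For *Esrra* it is 29.6%, with *Trmt112*, which fell by 0.31 on the log2 scale (adjusted p = 0.0272). For *Gabpa* it is 23.7%, with the ATP synthase subunit gene *Atp5pf*, which fell by 0.35 (adjusted p = 0.0124). *Mfn2* shares 11.8% with *Fv1*, whose levels of 32.0 and 21.1 are small beside its own, and *Mff* shares 2.79% with the noncoding RNA *C430014B12Rik* at 6.60 and 15.6. Of the 31-base words in the canonical transcript, 72.7% of *Dnm1l*, 62.7% of *Esrra* and 56.4% of *Mfn1* also occur in a transcript of another gene, against 13.8% of *Gabpa*, 7.19% of *Mff*, 6.61% of *Ppargc1b*, 2.87% of *Nrf1* and 0 for *Mfn2*, *Opa1* and *Fis1*. With the other genes of the 10, the canonical transcript of *Mfn1* shared 2 such words and the other 9 transcripts 0. How the authors' algorithm divided reads in the shared stretches was not tested.

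Levels can be compared between genes only per length. Per kilobase of canonical transcript, *Fis1* was highest with 3564 ± 91.9 normalized counts with vehicle (SD, n = 3), followed by *Nrf1* at 899 ± 17.6, *Mff* at 850 ± 30.1, *Mfn2* at 497 ± 14.9 and *Dnm1l* at 286 ± 4.94. *Gabpa* (223 ± 15.2), *Opa1* (204 ± 8.23) and *Esrra* (202 ± 10.3) came next, and in this run the ranges of *Gabpa* and *Opa1* and of *Opa1* and *Esrra* overlapped. *Mfn1* at 71.3 ± 0.55 and *Ppargc1b* at 42.1 ± 6.52 were lowest. With melatonin the order was the same except that *Mff*, at 1116 ± 47.1, stood above *Nrf1*, at 979 ± 124, with overlapping ranges. *Fis1* was at 2679 ± 139 and still highest, and *Ppargc1b* at 29.0 ± 5.26 still lowest. These levels rest on the canonical transcript, whereas the cells may use others.

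The genes whose pattern over the 6 samples lay nearest to that of *Fis1*, the member with the smallest p, were *Slc25a12*, *Aig1* and *Prkcsh*, out of 9989 genes with a mean of at least 100. Their Euclidean distances to *Fis1*, on log2 values less the vehicle mean, were 0.05, 0.06 and 0.06. *Slc25a12*, a mitochondrial carrier of aspartate and glutamate, had 2135, 2071 and 2020 normalized counts with vehicle and 1546, 1444 and 1613 with melatonin. *Aig1* had 293, 296 and 286 with vehicle and 225, 210 and 236 with melatonin. *Prkcsh* had 2880, 2836 and 2826 with vehicle and 2167, 1958 and 2229 with melatonin. In each, as for *Fis1*, melatonin replicate 2 was the lowest sample and replicate 3 the highest of the treated libraries. This likeness follows from the choice of genes by nearness on these same values.

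Other genes of the same processes were counted in the same fit, with calls to be read against the 24.5% higher and 24.7% lower of all genes. Among 18 genes of fusion control and inner membrane shaping, 4 rose, 8 fell and 6 did not pass, with a median log2 change of −0.27. This median was −0.11 with the length curve removed and −0.41 with melatonin replicate 1 alone. The prohibitin gene *Phb2*, a scaffold of the inner membrane, fell from 4756 ± 43.0 to 2492 ± 405 normalized counts (SD, n = 3), by 0.95 on the log2 scale (adjusted p = 0.000348), and the cristae organizing gene *Chchd6* fell by 0.79 (adjusted p = 0.000575). *Oma1*, the protease that cleaves OPA1 under stress, rose from 525 ± 44.4 to 890 ± 66.5, a log2 change of 0.76 (adjusted p = 0.000558). *Slc25a46*, an outer membrane protein of mitochondrial dynamics, rose by 0.71 (adjusted p = 0.00139).

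Of the 17 other genes of fission and its regulation, 16 had a value (not *Gdap1*), of which 3 rose, 4 fell and 9 did not pass, with a median of 0.13, which was 0.08 with the length curve removed. The rises were in the *Mtfr* family of fission regulators, where *Mtfr1l* had a log2 change of 0.83 (adjusted p = 0.00015), *Mtfr2* of 0.40 (adjusted p = 0.00765) and *Mtfr1* of 0.31 (adjusted p = 0.0155). *Mtfp1*, an inner membrane protein that promotes fission, had 142, 133 and 121 normalized counts with vehicle and 6.54, 22.9 and 21.1 with melatonin. No treated sample came near the vehicle range, and its log2 change of −3.06 ± 0.42 (SE, adjusted p = 0.000575) was the largest of any gene in these lists. *Fundc2*, an outer membrane protein gene on chromosome X, fell by 0.90 (adjusted p = 0.000789), and by 0.94 with melatonin replicate 1, without high *Xist*, as the only treated library (adjusted p = 0.00178). In all, 7 genes of these lists are on chromosome X, of which 4 were called, the others being *Hcfc1*, *Timm8a1* and *Timm17b*. In the fit with melatonin replicate 1 alone, *Hcfc1* (−1.03, adjusted p = 0.000297) and *Timm8a1* (−0.98, adjusted p = 0.000792) were also called, *Timm17b* was not (−0.14, adjusted p = 0.208), and *Apoo* (−0.54, adjusted p = 0.0476) and *Armcx3* (0.44, adjusted p = 0.0402) were called, which they were not with all samples. The DRP1 receptors *Mief1* and *Mief2* did not pass, with changes of −0.14 (adjusted p = 0.227) and 0.15 (adjusted p = 0.331). Without vehicle replicate 3, the calls in this list numbered 4 in place of 7, with a median of 0.16.

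Among 9 genes of mitochondrial transport along microtubules, 4 rose, 1 fell and 4 did not pass, with a median of 0.26. This median was 0.17 with the length curve removed, 0.16 with the GC content curve removed and 0.16 with melatonin replicate 1 alone. The kinesin heavy chain gene *Kif5b* rose from 2777 ± 66.7 to 3989 ± 209 normalized counts (SD, n = 3), a log2 change of 0.52 (adjusted p = 0.000647), and *Rhot1*, which encodes the Miro GTPase that links mitochondria to motors, by 0.48 (adjusted p = 0.00373). *Mtx1*, the only gene of this list called lower, fell by 0.48 (adjusted p = 0.0013).

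Among the partners and upstream regulators of the biogenesis factors, 15 of 19 had a value and 14 could be tested. Those without a value were *Ppargc1a*, *Esrrb*, *Esrrg* and *Ppara*. Here 2 rose, 6 fell and 6 did not pass, with a median of −0.17. This median was −0.28 with the length curve removed, −0.25 with melatonin replicate 1 alone and −0.10 with no filter on low values. The transcription factor gene *Yy1* fell from 832 ± 129 to 374 ± 68.1 normalized counts (SD, n = 3), by 1.16 on the log2 scale (adjusted p = 0.00064), and *Gabpb2*, which encodes a partner subunit of GABPA, fell by 0.98 (adjusted p = 0.000712). The other GABPA partner, *Gabpb1*, did not pass, at 0.14 (adjusted p = 0.158). The genes called higher were *Nrip1*, a corepressor of nuclear receptors including ERRα, at 0.40 (adjusted p = 0.00214), and *Prkaa2*, a catalytic subunit of AMPK, at values of 0.93, 1.87 and 5.25 with vehicle and 18.7, 12.0 and 8.04 with melatonin (adjusted p = 0.023).

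Genes known as targets of the biogenesis factors, and genes of protein import, were counted in the same way. Of 16 textbook targets of NRF1 and GABPA, 0 rose in limma (0 also at an unadjusted p under 0.05, and 0 with voom), 10 fell and 6 did not pass, with a median of −0.32. The mitochondrial chaperonin gene *Hspe1* fell from 1216 ± 71.2 to 511 ± 164 normalized counts (SD, n = 3), by 1.31 on the log2 scale (adjusted p = 0.00161), and the outer membrane channel gene *Vdac1* fell by 0.72 (adjusted p = 0.000678). *Tfam*, the mitochondrial DNA packaging factor, did not pass, at −0.29 (adjusted p = 0.0549). Of 9 textbook ERRα targets with a value (not *Pdk4*), *Esrra* itself included, 1 rose, 4 fell and 4 did not pass, with a median of −0.28, which was −0.15 with quantile normalization. *Acadm*, an enzyme of fatty acid oxidation, had a log2 change of 0.41 (adjusted p = 0.00934), whereas the ATP synthase subunit gene *Atp5f1b* fell by 0.63 (adjusted p = 0.000733) and *Idh3a* of the citric acid cycle fell by 0.41 (adjusted p = 0.00755). Of 23 genes of protein import into mitochondria, 0 rose in limma (0 also at an unadjusted p under 0.05, and 0 with voom), 18 fell and 5 did not pass, with a median of −0.38, and *Timm10* (fell by 1.00, adjusted p = 0.000255) and *Tomm40* (fell by 0.92, adjusted p = 0.000252) changed most. The lists share *Cycs*, *Atp5f1b*, *Tomm20* and *Tomm70a* among them. With the length curve removed, the medians were −0.41 for the NRF1 and GABPA targets, −0.38 for the ERRα targets and −0.43 for the import genes. Without vehicle replicate 2 the NRF1 and GABPA targets called numbered 5 in place of 10, with a median of −0.33. Without vehicle replicate 1 or 2 the import genes called numbered 10 in place of 18, with medians of −0.33 and −0.38, while all genes called lower numbered 2713 and 2708 in place of 3565. With melatonin replicate 1 alone, 14 of the NRF1 and GABPA targets were called and their median was −0.58.

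**Figure D5:**
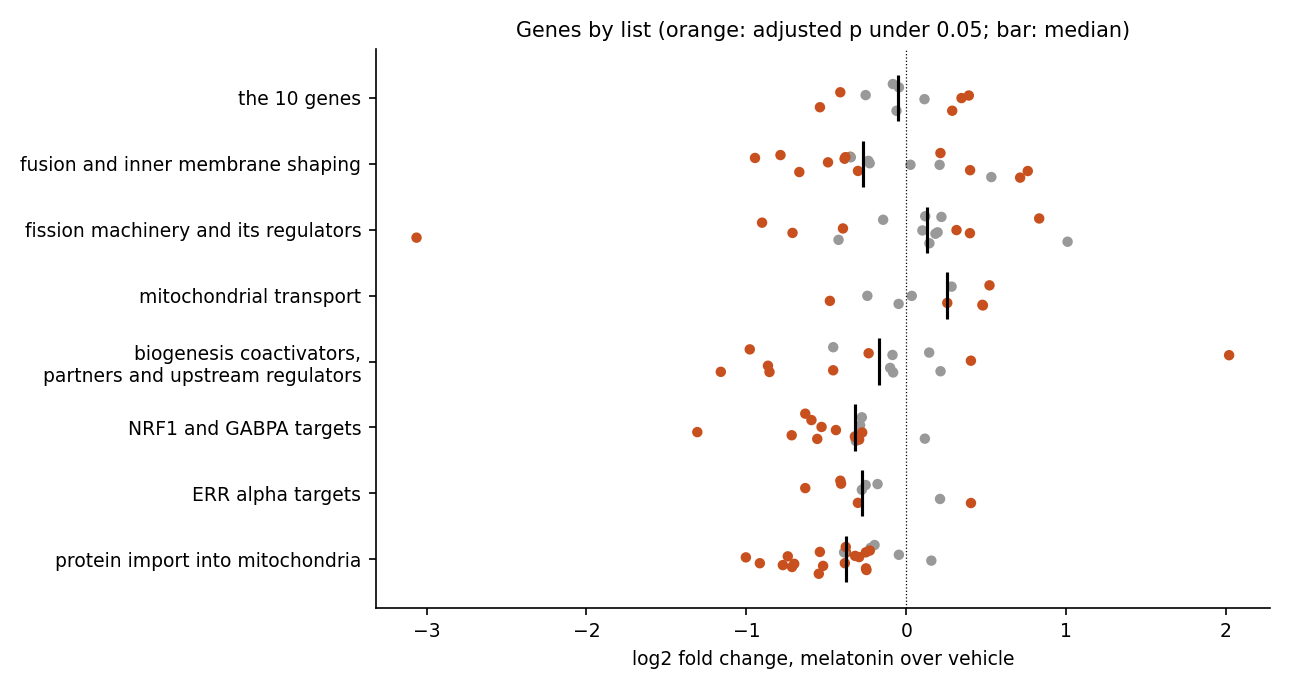
Log2 fold change, melatonin over vehicle (x axis), of every tested gene in each list (rows), orange where the adjusted p was under 0.05 and grey otherwise, with a bar at the list's median; vertical scatter within a row only separates points. The 10 genes spread to both sides of 0 with a median of −0.05, whereas the points of the NRF1 and GABPA targets (median −0.32) and of the import genes (median −0.38) lie mostly left of it and *Mtfp1* stands alone at −3.06.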

How the data were processed

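Bulk RNA sequencing of lung aILC2s was analysed in 3 melatonin and 3 vehicle samples. After trimming, the authors aligned reads to mm39 with STAR, quantified them to Gencode genes with the Partek E/M algorithm, removed low genes and applied median ratio normalization. The deposited values are a signal on the scale of counts after division by each sample's size factor, and are called normalized counts here. Whole reads were not recovered, since only 72.0% to 73.7% of values under 60 were whole multiples of a read at a tolerance of 0.01 reads. DESeq2, which the authors used, was therefore not run.

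Genes were tested with limma 3.58.1 under R 4.3.3 (lmFit and trended eBayes) on log2(normalized count + 1), with treatment as the only term, for the 14419 genes that reached 10 in any sample. Fold changes are on that scale, which understates changes of low genes. The Benjamini-Hochberg adjustment ran over all genes tested, with a threshold of 0.05, and the script was tested on simulated data. In the deposited table, 16334 genes had a name in Gencode M39, which also gave GRCm39 positions and the canonical transcripts whose lengths were used. Files were read with Python 3.11.15, pandas 2.3.3 and numpy 2.4.6, and figures drawn with matplotlib 3.10.9.

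The 10 genes, the gene lists and the marker lists were chosen with earlier results of these data known. A marker list that holds an item withheld for evaluation is not reported here. In each list, the 2 largest rises and 2 largest falls among called genes are named, and all genes of a count of 3 or fewer; *Gabpb1*, *Mief1*, *Mief2* and *Tfam* are named in addition and were chosen after their values were seen. The 20 alternative fits were pseudocounts of 0.1 and 10, no filter or a mean of at least 100, scaling to the same total, upper quartile and quantile normalization, limma without the trend, with sample weights or as voom on estimated counts, a replicate block, leaving out each sample, melatonin replicate 1 alone against vehicle, and a lowess curve (span 0.3) against transcript length or GC content removed from each sample. A threshold of 0.01 was also tried.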

Additional observations from a re-analysis of the deposited data

How the results depend on the processing

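The rises of *Mff* and *Mfn1* were called in all 20 alternative fits, and that of *Dnm1l* in 13. The 3 genes called higher became 1 at a threshold of 0.01. The 2 called lower became 1 with a GC content curve removed, without the trend, with melatonin replicate 1 alone, with no filter on low values, with scaling to the same total, with voom and at a threshold of 0.01, and became 3 with sample weights and with upper quartile scaling. With the length curve removed they were *Mfn2* and *Ppargc1b*. Leaving out each sample in turn gave between 2 and 3 genes called higher and between 1 and 2 called lower. The sign of *Mfn2* turned with the GC content curve (0.058), and without a single sample its change ranged from −0.10 to 0.0013, that of *Opa1* from −0.095 to 0.0022 and that of *Gabpa* from −0.15 to 0.020. The median change of the 10 genes was −0.12 with the transcript length curve removed and ranged from −0.10 to 0.011 without a single sample. Over all genes, a threshold of 0.01 gave 2188 higher and 2267 lower, and the called genes fell to 4 in the fission list, 5 among the NRF1 and GABPA targets and 9 in the import list. Leaving out a sample gave 4 to 9, 5 to 12 and 10 to 18 calls in these lists. The cause of these differences was not tested. The labels do not say whether the replicate numbers pair the samples. Deviations of same-numbered samples from their group means correlated at −0.11, 0.14 and −0.19 (across genes), and not every sample correlated best with its own number. Deviations from a mean of 3 samples are tied to each other, so these values cannot show whether samples were paired. With the replicate number as a block, 3 of the 10 genes were again called higher and 2 lower, and over all genes 3160 and 3278. Scaling moved the median of all genes by at most 0.05 on the log2 scale. *Ppargc1b*, at 91.8 to 185 normalized counts, had the lowest values and the largest standard error of the 10 (0.20), and the part of depth in this was not tested.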
